A study of Mus musculus with 6 samples.

Results

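Proteoglycans are matrix proteins that carry long, negatively charged sugar chains, and the small leucine-rich proteoglycans (SLRPs) are the group of them that coats collagen fibrils. The genes described here are 7 SLRP genes, Dcn, Bgn, Aspn, Lum, Fmod, Prelp and Ogn, together with Vcan, which encodes the large proteoglycan versican. These 8 genes were selected by name, from the Ensembl identifiers that GENCODE M21 assigns to the symbols, among 21603 genes in each sample. The rule uses no measured value, but the 8 genes and all lists below were chosen with earlier results of these data known. All 8 reached at least 1 RPKM (read counts divided by exon length and by library size) in at least 3 of the 6 samples and were tested.

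RNA on the ribosomes of recombined lung cells was sequenced at postnatal day 8 (P8) from 3 control and 3 Yap1,Wwtr1 iPCKO mice of the C57BL/6 strain. All 6 mice carried the Pdgfrb(BAC)-CreERT2 transgene, which drives tamoxifen-inducible Cre recombinase from the Pdgfrb gene in pericytes, and the RiboTag allele, through which recombined cells tag RPL22, a protein of the ribosome, with an HA epitope. Controls had the genotype Yap1+/-;Wwtr1+/- and iPCKO mice Yap1-/-;Wwtr1-/- in the labels, and in the methods the deleted alleles are floxed copies, so controls kept a wild-type allele beside the floxed allele of each gene. Tamoxifen was given to both groups from P0 to P2, and anti-HA immunoprecipitation was used to collect the RNA. By design, the comparison is therefore of recombined cells with 1 functional copy each of Yap1 and Wwtr1 (the gene of TAZ) with recombined cells with none. The collected RNA was not of pericytes alone. The epithelial marker Sftpc was 338 to 381 RPKM in controls and 433 to 467 RPKM in iPCKO samples.

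Yap1 was 13.2, 11.5 and 12.4 RPKM in the controls and 5.76, 5.83 and 5.25 RPKM in the iPCKO samples, with no overlap (log2 fold change -1.12, adjusted p = 0.000175, limma). For Wwtr1 the means were 60.4 ± 9.48 RPKM in the controls and 62.0 ± 1.63 RPKM in the mutants (SD, n = 3), and the single value per gene does not separate the floxed exons from the others. Pdgfrb, the marker of pericytes that also drives Cre, ranged from 1369 to 1666 RPKM in controls and from 1193 to 1447 RPKM in iPCKO samples. Low RPKM values fall on steps of whole reads, which put the scale of the libraries at 14.2 to 39.6 M reads. On that scale, the lowest value of any of the 8 genes, Fmod in iPCKO 3, corresponds to about 132 reads and the highest, Bgn in iPCKO 2, to about 33253 reads.

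SLRP core proteins are built around leucine-rich repeats that fold into a curved solenoid, and they control the width and spacing of collagen fibrils and hold growth factors such as TGF-β in the matrix. Class I members (decorin, biglycan, asporin) carry chondroitin or dermatan sulfate or, in asporin, an aspartate-rich stretch instead. Class II members (lumican, fibromodulin, prolargin) can carry keratan sulfate, and osteoglycin belongs to class III. Versican binds hyaluronan at its N terminus, carries chondroitin sulfate, and is a major part of the loose provisional matrix of developing lungs.

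YAP1 and TAZ do not bind DNA themselves but act through TEAD transcription factors, so the DNA just before the transcription start of the 4 genes that passed the thresholds is printed here. Each run is the 250 bases before the start in RefSeq on GRCm38.p6, 5′ to 3′ on the strand of the gene. Capitals mark the letters of the TEAD core (GGAATG) and of the TATA box (TATAAA) at any position on either strand. A marked stretch is a match of letters and is not shown to work as either element. Aspn lies at chr13:49544193-49544442 (plus strand), Ogn at chr13:49607765-49608014 (plus strand), Prelp at chr1:133921402-133921651 (minus strand) and Vcan at chr13:89742513-89742762 (minus strand).
Aspn: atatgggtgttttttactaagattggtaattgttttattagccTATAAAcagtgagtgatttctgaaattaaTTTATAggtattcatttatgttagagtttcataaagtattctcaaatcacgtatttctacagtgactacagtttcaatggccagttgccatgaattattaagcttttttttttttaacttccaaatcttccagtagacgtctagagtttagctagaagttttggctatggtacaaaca
Ogn: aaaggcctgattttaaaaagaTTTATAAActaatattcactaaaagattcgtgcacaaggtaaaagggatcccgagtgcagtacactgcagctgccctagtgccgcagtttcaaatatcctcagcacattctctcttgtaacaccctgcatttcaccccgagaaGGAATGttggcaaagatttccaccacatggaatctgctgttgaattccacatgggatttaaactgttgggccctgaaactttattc
Prelp: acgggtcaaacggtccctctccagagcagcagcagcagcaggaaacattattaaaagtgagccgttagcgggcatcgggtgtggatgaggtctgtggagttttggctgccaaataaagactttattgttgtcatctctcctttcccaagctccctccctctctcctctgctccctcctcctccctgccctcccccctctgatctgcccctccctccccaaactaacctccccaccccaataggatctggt
Vcan: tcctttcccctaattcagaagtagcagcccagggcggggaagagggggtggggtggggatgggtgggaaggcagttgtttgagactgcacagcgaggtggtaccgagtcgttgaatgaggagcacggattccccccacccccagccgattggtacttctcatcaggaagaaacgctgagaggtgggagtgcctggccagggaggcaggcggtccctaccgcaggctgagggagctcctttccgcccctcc
Of the 6 members with a promoter in the RefSeq table (Dcn and Lum are not among them), only Ogn held GGAATG, 86 bases before the start. The same letters occurred on either strand in 12.6% of 32817 mouse windows of this length. TATAAA was found in Aspn, 207 and 178 bases before the start, and in Ogn, where a pair of overlapping matches lies 229 and 227 bases before it, against 12.4% of all windows. The AP-1 sequence TGANTCA was in no member window and in 6.75% of all windows. A match of a few letters describes the sequence and shows no binding.

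Of the 8 genes, 4 differed between the groups with an adjusted p under 0.01 and a log2 fold change beyond 0.5 in either direction (limma on log2(RPKM + 0.1), Benjamini-Hochberg over 12034 genes). Aspn and Vcan were higher in iPCKO samples, about 1.90-fold and 1.87-fold, whereas Prelp and Ogn were lower, by factors of 2.26 and 2.14. Dcn, Bgn and Lum did not pass, and Fmod, with the largest fold change of all, did not pass, with controls far apart from each other. Of all tested genes 6.79% passed, with 4.11% of all tested genes higher and 2.68% lower in iPCKO samples. Each value is a level in bulk RNA, in which fewer cells of a type and less RNA per cell cannot be told apart.

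**Figure D1:**
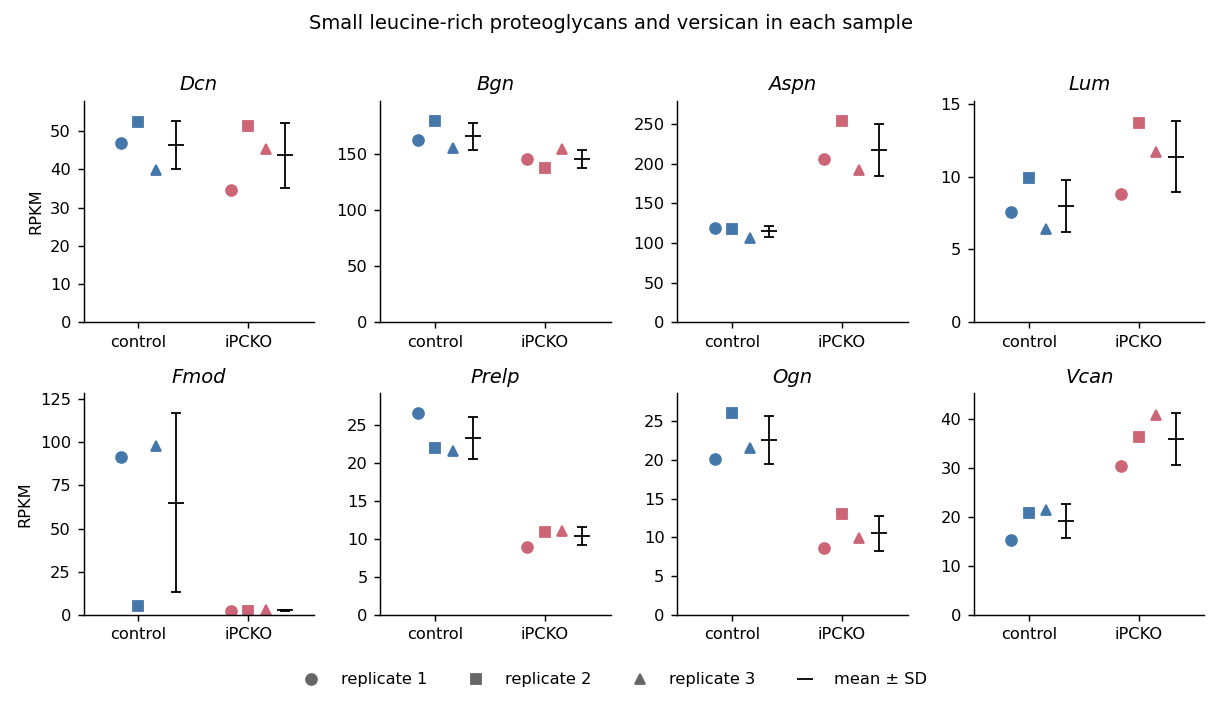
RPKM of each of the 8 genes (vertical axes, starting at 0, 1 scale per gene) in the 3 control (blue) and 3 iPCKO (red) samples, with the symbol giving the replicate number and black bars the mean ± SD. Aspn and Vcan are higher and Prelp and Ogn lower in every iPCKO sample, and control 2 is far below control 1 and control 3 for Fmod.

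Decorin, which binds collagen and TGF-β, showed little difference. Dcn (chr10:97479609-97518143, plus strand) was 46.9, 52.3 and 39.8 RPKM in the controls and 34.5, 51.3 and 45.2 RPKM in the iPCKO samples. The groups overlapped widely, and the log2 fold change of -0.10 (95% interval -0.46 to 0.27, adjusted p = 0.733) lay within the spread of the replicates. Its sign turned to 0.06 in the fit without iPCKO 1, the lowest of the 6 samples.

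Biglycan, the closest relative of decorin and also a ligand of TLR2 and TLR4 when released, had the highest level of the 8 genes in controls. Bgn (chrX:73483602-73495933, plus strand) measured 162, 179 and 155 RPKM in controls and 145, 138 and 154 RPKM in iPCKO samples. The lowest control was only just above the highest iPCKO sample. The log2 fold change was -0.18 (95% interval -0.42 to 0.05, adjusted p = 0.272).

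Asporin, which binds collagen and TGF-β1 and can take up calcium through its aspartate stretch, rose. Aspn (ENSMUSG00000021388, chr13:49544443-49567565, plus strand) had 119, 118 and 106 RPKM in controls and 206, 253 and 192 RPKM in iPCKO samples. All iPCKO samples were well above all controls, and the log2 fold change was 0.91 (SE 0.13, adjusted p = 0.00196). It remained from 0.797 to 0.998 when each sample was left out in turn and passed in 5 of the 6 reduced fits, the exception being the fit without control 3 (adjusted p = 0.0132). In RPKM, Bgn was above Aspn in every control sample, and Aspn was above Bgn in every iPCKO sample. This order rests on the exon lengths behind the RPKM, which are not given. Approximate reads were higher for Bgn than for Aspn in every sample, as in iPCKO 2 (about 33253 and 23614). They are computed from RPKM with merged exon lengths of 6099 bases for Bgn and 2354 for Aspn. They are thus no independent check of the order.

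Among the class II genes, lumican, which binds fibrillar collagen and is known from the cornea, had the lowest mean in controls, although Fmod was below it in control 2. Lum (chr10:97565128-97572703, plus strand) was 7.58, 9.89 and 6.40 RPKM in controls and 8.81, 13.7 and 11.7 RPKM in iPCKO samples. Control 2 lay above iPCKO 1, so the groups overlapped. The log2 fold change of 0.51 (95% interval 0.07 to 0.95) had an adjusted p of 0.114 and did not pass, although it passed with sample weights, at 0.75 (adjusted p = 0.00626).

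Prolargin, which links collagen to heparan sulfate through its basic N terminus, fell. Prelp (ENSMUSG00000041577, chr1:133910304-133921414, minus strand) was 26.5, 22.0 and 21.5 RPKM in controls and 8.96, 10.9 and 11.1 RPKM in iPCKO samples. The lowest control was far above the highest iPCKO sample, and the spread within each group was small. Its log2 fold change of -1.17 (SE 0.12, adjusted p = 0.000452) stayed between -1.22 and -1.07 and passed in all 6 reduced fits.

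Osteoglycin, a class III SLRP first named for its place in bone and also called mimecan, fell to a similar extent. Ogn (ENSMUSG00000021390, chr13:49608046-49624501, plus strand), the gene with the TEAD core in its printed sequence, was 20.1, 26.0 and 21.5 RPKM in controls and 8.57, 13.04 and 9.91 RPKM in iPCKO samples. The groups did not overlap, and replicate 2 was the highest of each group. The log2 fold change was -1.11 (SE 0.16, adjusted p = 0.00251). It passed in 4 of the 6 reduced fits and was lost without control 3 (adjusted p = 0.0112) or without iPCKO 3 (adjusted p = 0.0116).

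Versican rose by as much as asporin. Vcan (ENSMUSG00000021614, chr13:89655312-89742509, minus strand) was 15.2, 20.8 and 21.3 RPKM in controls and 30.3, 36.2 and 40.9 RPKM in iPCKO samples. Every iPCKO sample was above every control, but both groups were wider than for Prelp. The log2 fold change of 0.91 (SE 0.16, adjusted p = 0.00567) was the least secure of the 4. It ranged from 0.75 to 1.02 with each sample left out, with adjusted p-values between 0.00352 and 0.0242, and passed only without iPCKO 1. The single value per gene does not separate the splice forms of versican, which differ in their sugar-bearing region.

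**Figure D2:**
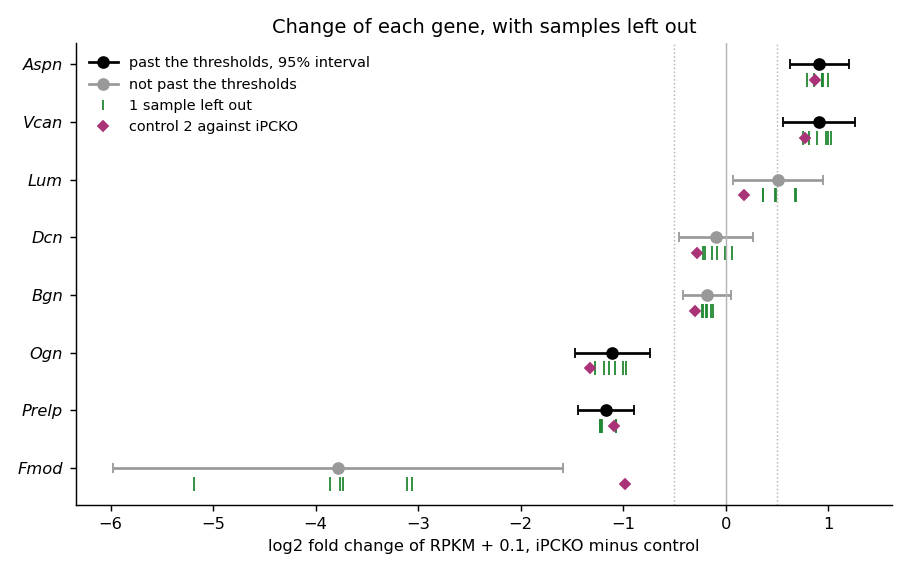
Log2 fold change of RPKM + 0.1 (horizontal axis, iPCKO minus control) of each gene with its 95% interval, in black for genes past the thresholds and in grey for the others, with dotted lines at the fold change threshold of 0.5. Green ticks are the 6 fits that each left out a sample and diamonds the comparison of control 2 alone with the iPCKO samples, and both keep the direction of Aspn, Vcan, Ogn and Prelp.

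Fibromodulin, which binds collagen I at the same site as lumican and takes part in early fibril assembly, had a pattern of its own. Fmod (ENSMUSG00000041559, chr1:134037254-134048277, plus strand) was 91.4 RPKM in control 1 and 98.2 RPKM in control 3, but 5.05 RPKM in control 2. The iPCKO samples had 2.33, 2.42 and 2.80 RPKM. Control 2 was thus 2.01-fold above the iPCKO mean, and the mean of control 1 and control 3 was 18.8-fold above control 2. The log2 fold change of -3.78 had a standard error of 0.96 and an adjusted p of 0.0318. It did not pass, but without control 2 it was -5.18 with an adjusted p of 1.53e-06, while control 2 alone against the iPCKO samples gave -0.98 (adjusted p = 0.0571).

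The samples with high Fmod were set apart by another feature, a comparison made after the values had been seen. Of all 21603 genes, only 5 were more than 1 log2 unit higher in both control 1 and control 3 than in each of the other 4 samples. They were Fmod and the Y-linked genes Ddx3y, Kdm5d, Eif2s3y and Uty. Ddx3y, an RNA helicase gene, was 17.2 RPKM in control 1 and 19.7 RPKM in control 3 and was listed at 0 in the other 4 samples. Kdm5d, which encodes a histone demethylase, was 6.95 and 8.81 RPKM in these 2 controls and also listed at 0 elsewhere. Y-linked transcripts were therefore found in 2 of 3 controls and at 0.0689 RPKM or less in control 2 and all iPCKO samples. The methods state that animals were grouped irrespective of sex, and the labels give none. Control 2 has the control genotype without Y-linked RNA above that level, but no iPCKO sample has more, so between control 1 or control 3 and the iPCKO samples both differ at once.

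**Figure D3:**
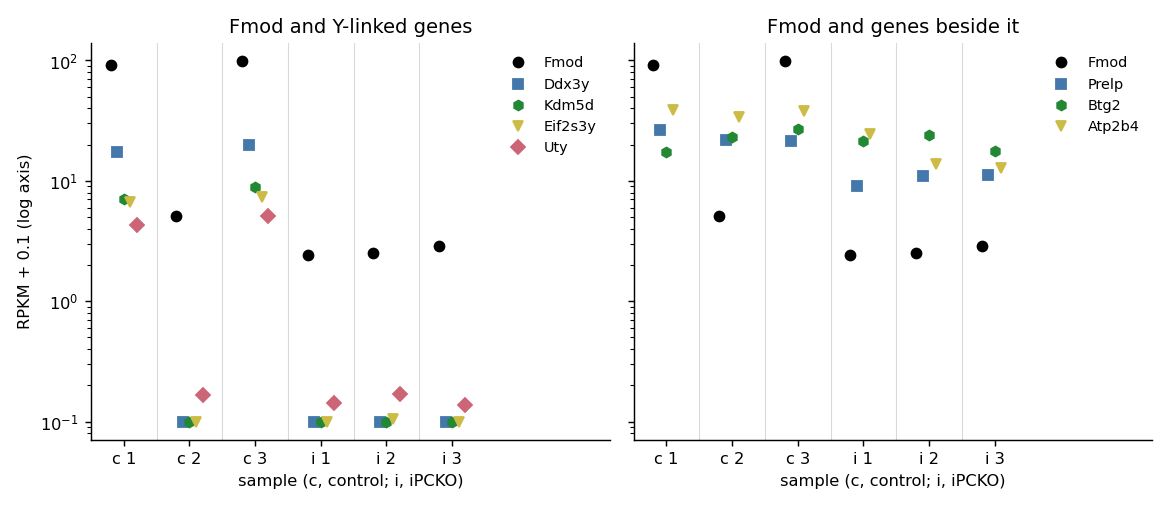
RPKM + 0.1 on a log axis of Fmod with 4 Y-linked genes (left) and with 3 genes near it on chromosome 1 (right), for control samples c 1 to c 3 and iPCKO samples i 1 to i 3. Fmod and the Y-linked genes are high only in c 1 and c 3, whereas Prelp, Btg2 and Atp2b4 show no such gap at c 2.

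None of the other 7 genes was among these 5. When control 2 alone was set against the 3 iPCKO samples, the 4 changes kept their direction, with log2 fold changes of 0.87 for Aspn (adjusted p = 0.103), 0.77 for Vcan (0.106), -1.09 for Prelp (0.0341) and -1.32 for Ogn (0.0523). A single control has no spread of its own, so the spread between samples in this fit came only from the 3 iPCKO samples. With the Y-linked level as a covariate, the changes were 0.87 for Aspn (adjusted p = 0.0553), 0.78 for Vcan (0.129), -1.09 for Prelp (0.0191) and -1.32 for Ogn (0.0198), and 0 of the 8 genes and 119 of all genes passed. The same covariate took Fmod from -3.78 to -0.96 (adjusted p = 0.0182), the largest shift among the 8. That shift was built in, since the Y-linked genes were found by a search for the sample pattern of Fmod. The covariate is high only in control 1 and control 3, so this fit nearly repeats the comparison of control 2 with the iPCKO samples. No neighbour of Fmod within 300 kb had its gap between control 2 and the other controls, but some were lower in iPCKO samples. Adora1, an adenosine receptor gene, was 3.96, 3.27 and 3.50 RPKM in controls and 0.441, 0.563 and 0.679 RPKM in iPCKO samples (log2 fold change -2.49, adjusted p = 8.8e-05), and Atp2b4, a calcium pump gene, fell by 1.17 on the log2 scale (adjusted p = 0.00799). Btg2, the next coding gene on one side, had 17.2, 23.2 and 26.6 RPKM in controls and 21.4, 24.0 and 17.6 RPKM in iPCKO samples. Prelp, on the other side, was as high in control 2 as in control 3. Chondrocyte markers are a list of genes of cartilage, in which fibromodulin is abundant. They summed to 1.5 RPKM in control 1 and control 3, 3.6 RPKM in control 2, and 2.2, 3.4 and 3.0 RPKM in iPCKO samples. None of the 10 was above the filter, and Matn1 was below 0.05 RPKM in every sample. The cells behind the Fmod values were not tested.

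Of the 7 SLRP genes, all but Bgn lie beside other genes of the family, in clusters on chromosomes 13, 10 and 1. On chromosome 13, Ecm2, Aspn, Omd and Ogn follow each other on the same strand, with gaps of 11.7, 14.9 and 15.2 kb and no other coding gene between them. Ecm2, which encodes a related matrix protein, was 20.8, 22.0 and 22.96 RPKM in controls and 20.8, 21.9 and 18.8 RPKM in iPCKO samples (log2 fold change -0.10, adjusted p = 0.524). Next to it Aspn rose and, beyond Omd, Ogn fell, so that the ratio of Aspn to Ogn was 5.91, 4.55 and 4.94 in controls and 24.0, 19.4 and 19.4 in iPCKO samples. Omd between them was below the filter, with 0.16 to 0.29 RPKM in controls and 0.03 to 0.08 RPKM in iPCKO samples. On chromosome 10, Dcn and Lum are 47.0 kb apart and neither passed, and Kera and Epyc beyond them were under 0.05 RPKM throughout. On chromosome 1, 115.8 kb separate Prelp and Fmod, with every iPCKO sample below every control for both, and Optc beside Prelp was at or below 0.60 RPKM in every sample. Of the other 10 genes of the family, only Ecm2, Tsku and Podn could be tested, and 0 of 3 passed in either direction.

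Ratios to Dcn within a sample do not depend on how samples were scaled to each other. The ratio of Aspn to Dcn was 2.53, 2.26 and 2.67 in controls and 5.96, 4.94 and 4.25 in iPCKO samples. For Lum it was 0.161, 0.189 and 0.161 against 0.255, 0.266 and 0.258, without overlap, although its RPKM overlapped. The share of all tested genes whose ratio to Dcn does not overlap was not computed. Lum itself did not pass in limma (adjusted p = 0.114). The log2 differences of the ratios were 1.01 for Aspn, 1.01 for Vcan, 0.61 for Lum, -1.08 for Prelp, -1.02 for Ogn and -3.73 for Fmod. Each has p = 0.1 in a two-sided exact permutation test, the smallest that 3 samples against 3 allow. The ratio of Bgn to Dcn differed by -0.09 (exact p = 0.7). All 7 ratios share Dcn and are not independent of each other. Counted on RPKM, the groups did not overlap for 6 of the 8 genes (all but Dcn and Lum), and for 35.5% of all tested genes.

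The order of the levels in RPKM changed more than their sum, and an order between genes depends on exon lengths that are not given. In controls it ran from Bgn (166 ± 12.3 RPKM, SD, n = 3) and Aspn (114 ± 7.01) through Dcn (46.3 ± 6.26) to Prelp (23.3 ± 2.76), Ogn (22.5 ± 3.07) and Vcan (19.1 ± 3.41), and to Lum (7.96 ± 1.78), with Fmod spread over nearly the whole order. The control ranges of Ogn overlapped those of Prelp and Vcan, while the highest Vcan value (21.3) was just below the lowest of Prelp (21.5). In iPCKO samples it ran from Aspn (217 ± 32.3) and Bgn (146 ± 8.14) to Dcn (43.7 ± 8.51) and Vcan (35.8 ± 5.29), which overlapped, then to Lum (11.4 ± 2.44), Ogn (10.5 ± 2.29) and Prelp (10.3 ± 1.17), which also overlapped, and Fmod (2.52 ± 0.251). The summed RPKM of the 8 genes was 489, 433 and 471 in controls and 445, 519 and 468 in iPCKO samples, with overlap. Without Fmod, left out with its values known, the sums were 397, 428 and 372 against 442, 516 and 465 RPKM, without overlap. This is not a rise of the group, since Aspn alone rose from 114 to 217 RPKM in the means. Vcan and Lum were also higher in the means, and Bgn, Dcn, Prelp and Ogn were lower. How often sums of other genes separate was not computed.

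The pattern over the 6 samples was compared with that of all tested genes for Fmod and Prelp, which had the largest fold changes among the 8. The Y-linked genes reached 1 RPKM only in control 1 and control 3, so they were not among the tested genes. The highest Pearson correlations of log2(RPKM + 0.1) with Fmod, over 6 samples, were those of Zbtb20 (0.993), Slc22a5 (0.986) and Bcl2l1 (0.986). Their ranges were narrow, as in Bcl2l1, which was 20.5, 18.9 and 20.5 RPKM in controls and between 18.7 and 18.9 RPKM in iPCKO samples. For Prelp they were Coq10a, Ttc23 and Sp3, at 0.995 to 0.996, with log2 fold changes between -0.32 and -0.14. These are the highest of 12034 tested genes over only 6 samples, and for 35.5% of them the groups do not overlap. Such values describe the samples and show no link between the genes.

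**Figure D4:**
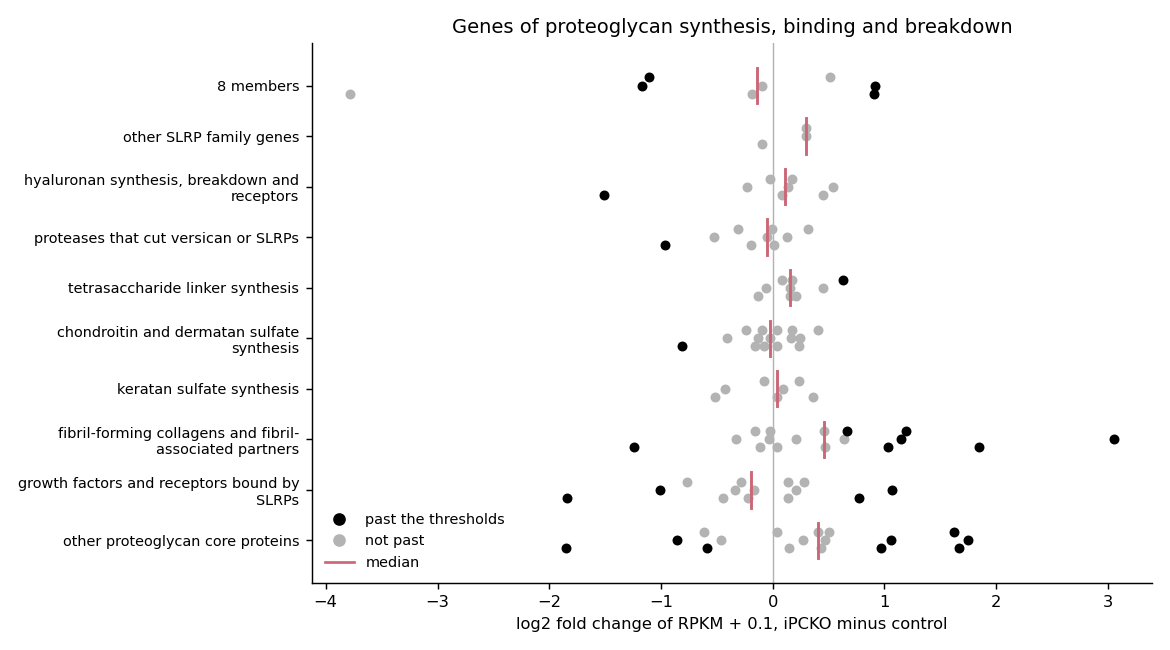
Log2 fold change of RPKM + 0.1 (horizontal axis, iPCKO minus control) of each tested gene in lists around the 8 genes, in black where the thresholds were passed, with red lines at the list medians. The enzyme lists sit near 0 with at most 1 black point each, and the list of fibril-forming collagens and their partners has 6 black points above 0 and 1 below.

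Genes of the enzymes that build the sugar chains passed in 2 cases, Ugdh and Chst3. Of 9 tested genes for the linker that joins every chain to its core protein, 1 passed, Ugdh, which makes UDP-glucuronate and rose from 7.29 ± 0.945 to 11.3 ± 0.468 RPKM (SD, n = 3, log2 fold change 0.63, adjusted p = 0.00553, limma). Of 15 tested genes for chondroitin and dermatan sulfate, 1 passed, the 6-O-sulfotransferase gene Chst3, which fell from 10.6 ± 1.78 to 5.98 ± 0.871 RPKM (-0.81, adjusted p = 0.00781). The list includes Dse, the epimerase that turns chondroitin into dermatan sulfate, at 44.3 and 43.5 RPKM. Of 7 tested genes for keratan sulfate 0 passed at these thresholds. The medians of the 3 lists were 0.15, -0.02 and 0.04, beside 0 for all tested genes. These counts of 1 of 9, 1 of 15 and 0 of 7 stand beside the 6.79% that passed over all genes.

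The partners that hold versican in the matrix or cut it passed in 2 cases, both lower. Acan, which encodes the related proteoglycan aggrecan, was below the filter, with 0.12, 0.28 and 0.11 RPKM in controls and 0.63, 1.13 and 1.14 RPKM in iPCKO samples, and of the link protein genes only Hapln3 was tested (1.85 RPKM in both groups, adjusted p = 0.989). Among 8 tested genes for the synthesis, breakdown and uptake of hyaluronan 1 passed. This was Cemip, a hyaluronan-degrading protein, which fell from 3.68 ± 0.823 to 1.22 ± 0.235 RPKM (-1.51, adjusted p = 0.00175), while the receptor gene Cd44 was 39.0 and 41.5 RPKM (adjusted p = 0.681). Among 9 tested proteases that cut versican or SLRPs 1 passed, the versicanase gene Adamts15, which fell from 16.4 ± 2.75 to 8.28 ± 0.818 RPKM (-0.97, adjusted p = 0.00183). Both counts, 1 of 8 and 1 of 9, stand beside the 6.79% of all genes. Mmp14, a membrane-bound protease, was 116 and 127 RPKM (adjusted p = 0.477), and Bmp1, which removes the propeptides of biglycan and other SLRPs, was 88.2 and 85.2 RPKM (adjusted p = 0.773).

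Among 17 tested collagens and fibril partners to which SLRPs bind, 7 passed, 6 higher and 1 lower, with a median log2 fold change of 0.46, beside 6.79% of all genes passing and a median of 0. Col6a3 and Col6a1, chains of the microfibrillar collagen VI, rose by 1.85 and 1.19 on the log2 scale, and Col5a3, a minor fibrillar chain, by 3.06 from 0.938 RPKM. Eln, the gene of elastin, fell from 1702 ± 262.9 to 725 ± 146.8 RPKM (-1.24, adjusted p = 0.00422). The chains of the main fibrils did not pass. Col1a1 was 346 ± 51.2 and 481 ± 107.6 RPKM (adjusted p = 0.146) and Col3a1 was 633 ± 60.1 and 508 ± 94.5 RPKM (adjusted p = 0.217). Col1a1 and Col3a1 are named here after their values had been seen.

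Of 14 tested growth factors and receptors known to bind SLRPs, 4 passed, 2 higher and 2 lower. Tgfb2, a ligand sequestered by decorin and biglycan, fell by 1.84 on the log2 scale and Bmp4 by 1.01, whereas Tlr2, a receptor for biglycan, rose by 1.07 and Kdr, the VEGF receptor that binds decorin, by 0.77. Among 17 tested core proteins of other proteoglycans 8 passed, 5 higher and 3 lower, with Esm1 (1.75), Srgn (1.66) and Col18a1 (1.62) rising most and Ptprz1 falling by 1.85. Cspg4, the pericyte proteoglycan NG2, rose from 81.8 ± 5.28 to 170 ± 12.1 RPKM. Srgn and Tlr2 are also expressed in leukocytes, and 10 leukocyte markers summed to 64.0 to 81.2 RPKM in controls and 114 to 227 RPKM in iPCKO samples, with 7 of 10 passing. Their part in these changes was not tested. For comparison, 4 of 22 YAP/TAZ target genes fell (Ajuba, Tgfb2, Lats2 and Amotl2) and 0 rose, with a median of -0.40. These counts of 4 of 14, 8 of 17 and 4 of 22 stand beside 6.79% of all genes, 4.11% higher and 2.68% lower.

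SLRPs and versican are also made by other mesenchymal cells, so marker lists of these cells are given beside the changes. Markers of adventitial fibroblasts, which are rich in decorin, summed to 223 to 313 RPKM in controls and 251 to 319 RPKM in iPCKO samples, and 0 of 9 passed in limma. Summed alveolar fibroblast markers ranged from 598 to 724 RPKM and from 680 to 780 RPKM, with 2 higher and 1 lower of 10. For myofibroblast markers the ranges were 694 to 888 and 865 to 1033 RPKM (2 higher and 2 lower of 8), and for smooth muscle markers 1282 to 1459 and 1413 to 1542 RPKM (2 higher and 2 lower of 8). Pericyte markers summed to 4198 to 5120 and 4337 to 5174 RPKM, with 3 of 10 higher (Cspg4, Abcc9 and Kcnj8) and 1 lower (Notch3). All these counts stand beside the 6.79% of all tested genes that passed, 4.11% higher and 2.68% lower. Pdgfra, a fibroblast marker, overlapped between the groups at 29.8 to 44.1 and 33.1 to 45.8 RPKM, and its level, like those of Dcn, Lum and Ogn, was highest in replicate 2 of each group. Relative to Pdgfra, Dcn was 1.38, 1.18 and 1.34 in controls and 1.04, 1.12 and 1.16 in iPCKO samples.

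Besides the leukocyte list, 3 marker lists had sums that did not overlap between the groups and were higher in iPCKO samples, as Aspn and Vcan were. Epithelial markers were 579 to 667 RPKM in controls and 849 to 896 RPKM in iPCKO samples (2 of 10 higher), mesothelial markers 7.9 to 11.2 and 13.7 to 15.9 RPKM (1 of 4 higher), and neutrophil markers 79.3 to 114 and 430 to 4673 RPKM (6 of 9 higher). Vcan and these neutrophil sums were both lowest in iPCKO 1 and highest in iPCKO 3, whereas Aspn was highest in iPCKO 2. Endothelial markers overlapped at 238 to 259 and 247 to 273 RPKM (1 of 10 higher). These counts stand beside the 4.11% of all tested genes that passed and were higher. The sums are weighted to abundant genes. In the epithelial list Scgb1a1 (means 114 and 212 RPKM) and Sftpc (363 and 454 RPKM) rose most, and neither passed. Aqp5 and Nkx2-1 were lower in the means. S100a8 (31.0 and 870 RPKM) and S100a9 (44.4 and 1183 RPKM) were the largest of the neutrophil list. How often sums of other lists separate was not computed. The part of the cells behind these lists in the levels of Aspn and Vcan was not tested.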

How the data were processed

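Ribosome-associated RNA of 3 control and 3 Yap1,Wwtr1 iPCKO lungs was sequenced as stranded total RNA with paired-end reads. Per the labels and methods, the authors used TopHat with the mm10 (GRCm38) assembly, HTSeq 0.6.1 for counting and DESeq2 for testing. They deposited 1 table of RPKM per sample. RPKM are divided by depth and exon length, so read counts, and with them the DESeq2 test, were not used here. The exon length used is not given in the sources used here, and errors of low genes are not visible in the values.

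The 12034 genes with 1 RPKM or more in 3 or more samples were tested as log2(RPKM + 0.1) with limma 3.58.1 in R 4.3.3 (eBayes with trend, no covariate, no scaling between samples), and p-values were adjusted by Benjamini-Hochberg over all of them. The pseudocount understates changes of low genes. Fold changes are iPCKO minus control, and the thresholds (adjusted p below 0.01, log2 fold change beyond 0.5 either way) follow the study. The fit was tested on simulated data.

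The denominators implied by low values of single-transcript genes were 19.7, 17.4 and 34.7 M reads for control 1 to 3 and 21.1, 39.6 and 14.2 M for iPCKO 1 to 3, with 76.0% to 77.4% of values of up to 10 reads within 0.02 of a whole number. Approximate reads are RPKM times merged GENCODE exon length times this scale and were used for description only. Log2 values correlated at 0.977 to 0.992 within and 0.929 to 0.962 between groups, and no pair of samples shared a nonzero value.

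The 8 genes and all lists were chosen with earlier results of these data known. From each list, up to 4 genes are named, those past the thresholds with the largest change and then those with the highest level. Omd, Kera, Epyc, Optc, Btg2, Atp2b4 and Adora1 are named for their place near a member, Cspg4 as a pericyte marker, and Col1a1, Col3a1, Pdgfra and the Y-linked genes after their values had been seen. Single ratios were compared with the exact permutation test. Promoter windows came from the RefSeq table and were searched with Python 3.11.15. Alternatives were other pseudocounts, filters, scalings and thresholds, the replicate number as a block, sample weights, no trend and each sample left out. The Y-linked covariate and the fit without control 1 and control 3 were added after seeing the data. Input RNA was not analysed here.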

Additional observations from a re-analysis of the deposited data

How the results depend on the processing

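Of the 8 log2 fold changes, 7 kept their direction under every alternative run. Dcn turned to 0.13 with sample weights, and with each sample left out it ranged from -0.221 to 0.064, above 0 without iPCKO 1. The number of genes past the thresholds was 95 with no filter on low values, 1313 at an adjusted p below 0.05, 411 at an absolute log2 fold change above 1 and 1590 with sample weights. It was 119 with the Y-linked covariate and 31 with control 2 alone against the iPCKO samples, and it lay between 382 (without control 3) and 899 (without iPCKO 1) with each sample left out, with 414 without iPCKO 2 and 499 without iPCKO 3. Of the 8 genes, 0 passed with no filter, with the Y-linked covariate or with control 2 alone, and 2 (Ogn and Prelp) passed at a fold change above 1, where Aspn and Vcan could not. With no filter 21603 genes were tested together, and at an adjusted p below 0.05 in place of 0.01 Fmod passed as well. Leaving out each sample gave 1 to 4 genes, the lowest without control 3 (Prelp), and 2 without iPCKO 3 (Aspn and Prelp). Vcan was also lost under quantile normalization (adjusted p = 0.0111) and with no trend (0.0106), and the cause was not tested. The log2 ratio of Bgn to Dcn ranged from -0.247 to 0.079 with each sample left out, the highest without iPCKO 2.

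The replicate numbers are shared between the groups in the labels, but deviations of same-numbered samples correlated at 0.238, 0.092 and 0.022, so they were not treated as pairs. With the replicate block 922 genes and the same 4 of the 8 passed, and the block changed no call among the 8. Scaling by median ratios or quantiles moved the median of all log2 fold changes by -0.003 and -0.032. The depth of the libraries limits the low genes most.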
